A study of Mus musculus with 3 samples.

Results

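The integrated stress response was followed here through 10 transcripts: Atf4, Atf5, Ddit3, Ppp1r15a, Trib3, Chac1, Ddit4, Sesn2, Asns and Psat1. They were found by symbol among the 32285 genes that the 3 libraries of the series list. Finding them used no measured value, but the 10 were chosen with earlier results of these data known. All libraries came from E14 mouse embryonic stem cells (129/Ola strain) kept in medium containing serum plus LIF, a cytokine that maintains pluripotency. One library came from cells given 250 µg/mL cycloheximide in 0.007% ethanol for 3 h, 1 from cells given the same for 6 h, and 1, the control, from cells exposed for 6 h to ethanol without the drug, all starting 24 h after seeding. The only library given ethanol alone had 6 h of it, so the 3 h library is compared with a longer exposure. Cells had been frozen and thawed before droplet capture, and each group was 1 library from that single line.

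Cycloheximide blocks the elongation step of translation on cytosolic ribosomes. In the integrated stress response, kinases that sense amino acid shortage, unfolded protein, haem shortage or double-stranded RNA phosphorylate the initiation factor eIF2, which lowers general translation and raises translation of a few messages with upstream open reading frames, among them Atf4, Atf5, Ddit3 and Ppp1r15a. The ATF4 protein is a short-lived transcription factor of the basic leucine zipper family that drives genes of amino acid synthesis, amino acid import and stress adaptation. Its dependence on translation sets the question followed here, which is how the Atf4 transcript and the transcripts of its known targets stood to each other once translation was inhibited.

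After cycloheximide the Atf4 transcript and its targets stood on opposite sides of the control for some members. Atf4 and Ddit3 were about 2-fold higher at 3 h and 6 h. Chac1, Trib3 and Sesn2 were at least 1.5-fold lower at both times, and Chac1 at 6 h was 8.76-fold lower. Asns, Ddit4 and Ppp1r15a lay within 1.5-fold of the control in every comparison with it, and so did Atf5 and Psat1, both lower than the control at each time. These folds are of CPM, and scaling moves some of them, as given below. With 1 library per group there is no replicate check and no test between conditions. Ranges in parentheses are 95% intervals, exact Poisson for levels, exact binomial for log2 ratios and exact Clopper-Pearson for shares of cells, and they cover counting error only.

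The DNA element through which ATF4 and its C/EBP partners act on many targets, known as the amino acid response element, contains the letters TGATGNAA on either strand. These letters were searched for from 250 bases before to 50 bases after the RefSeq start sites of GRCm38.p6. All 10 members had a window, 12 windows in all, and 3 members held a match, against 3.97% of all 32851 windows and 2.37% of the 6084 expressed genes with a window. The matches are shown because these 3 genes match the same pattern and differed in their response, Chac1 and Trib3 being lower after cycloheximide and Asns not. The matches differ from each other at the letter N, and only that of Asns reads TGATGNAA along the gene. Each sequence runs 5′ to 3′ along the gene, with the match in capitals.
Chac1, chr2:119350999-119351106, plus strand: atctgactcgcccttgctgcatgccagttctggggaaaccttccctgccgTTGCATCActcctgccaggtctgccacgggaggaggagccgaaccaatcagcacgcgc
Trib3, chr2:152344028-152344057, minus strand: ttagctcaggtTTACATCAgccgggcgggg
Asns, chr6:7693214-7693243, minus strand: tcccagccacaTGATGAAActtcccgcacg

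The match in Chac1 begins 193 bases before the RefSeq start and lies outside the transcript in GENCODE M21 too. In Trib3 the match begins at base 15 after the RefSeq start, which is 14 bases before the GENCODE start. In Asns it begins 23 bases before the RefSeq start and at base 23 after the GENCODE start, so annotations differ on whether these letters are transcribed. Expressed genes with a match had a median log2 ratio to the control of 0.14 after 3 h and 0.28 after 6 h, beside 0.11 and 0.17 for all expressed genes with a window. A match is a run of letters and not a measured binding site.

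**Figure D1:**
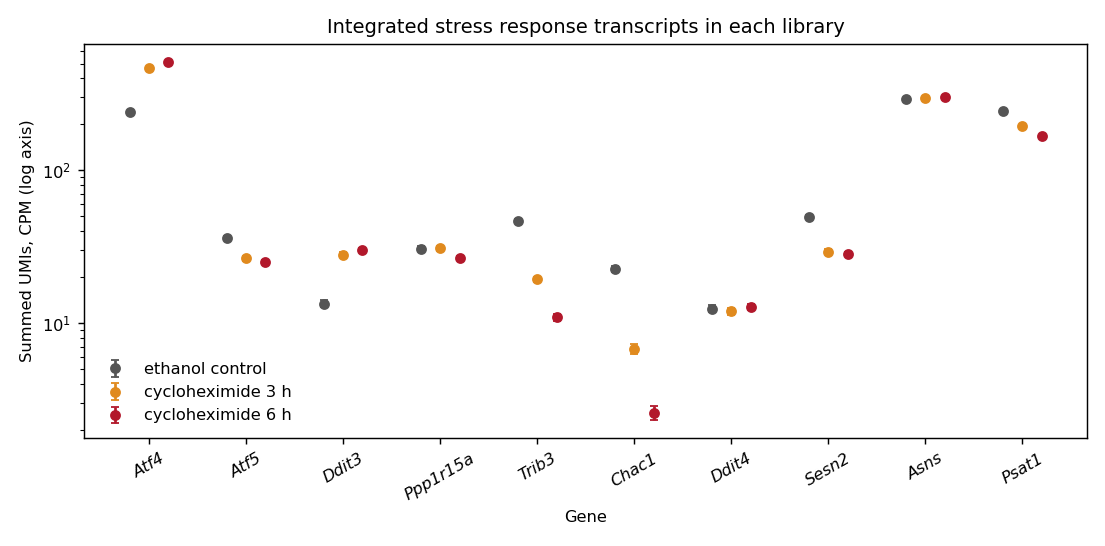
Summed UMIs of the 10 genes in each library, in CPM on a log axis; points are the ethanol control, 3 h and 6 h of cycloheximide, and bars are 95% Poisson intervals of the counts. Atf4 and Ddit3 stood higher after cycloheximide, whereas Trib3 and Chac1 stepped down from control to 3 h to 6 h.

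The cells kept had at least 15000 unique molecular identifiers (UMIs, 1 per captured molecule) and 1 to 20% mitochondrial UMIs. The control library held 2187 of them, the 3 h library 1739 and the 6 h library 2554, with median depths of 43160, 51726 and 46200 UMIs and totals of 111447486, 106842407 and 140321458 UMIs. Levels below are UMIs summed over these cells, as CPM (the UMIs of a gene scaled to all UMIs of these cells), a scale that is not divided by transcript length. At most 3 cell barcodes were shared by any pair of libraries. All 10 embryonic stem cell markers passed 10 CPM, with a summed level of 7303 to 8288 CPM across libraries. Of this sum Dppa5a gave 4771, 5327 and 5475 CPM in the order control, 3 h and 6 h. By CPM 2 of the 10, Zfp42 and Utf1, were at least 1.5-fold lower at 6 h than in the control, beside 7.79% of all genes averaging 10 CPM. Against 3 h, 5 were lower at 6 h, beside 2.52%. The 8 fibroblast markers summed to 1.99 to 2.93 CPM, with 3 or 4 of them at 0 in each library. The 8 endoderm markers summed to 9.26 to 12.4 CPM with none at 0. The 8 mesoderm and neural markers had none at 0 and summed to 85.9, 63.2 and 46.2 CPM in the order control, 3 h and 6 h, of which the neuronal tubulin Tubb3 gave 65.3, 35.1 and 18.6 CPM. The mitochondrial share of UMIs was 4.57%, 3.51% and 2.94% in the same order. The part of these differences in the results below was not tested.

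Over the 7608 genes that averaged 10 CPM or more, the median log2 ratio to the control was 0.11 at 3 h and 0.17 at 6 h, so a gene at 0 lay slightly below most others. Scaling by TMM factors (trimmed mean of M values, which aligns the bulk of genes between libraries) lowered all log2 ratios by a constant, shifting them by -0.17 at 3 h and -0.29 at 6 h, and the signs of small differences therefore follow the scaling. By CPM 1057 genes were at least 1.5-fold higher and 162 lower at 3 h. After 6 h 1678 were higher and 593 lower. Under TMM these counts were 654 and 398 after 3 h and 881 and 1285 after 6 h.

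Atf4 (ENSMUSG00000042406, chromosome 15, 80255184 to 80257541) stood at 242 CPM with ethanol (239 to 245), against 471 (466 to 475) after 3 h of drug and 509 (505 to 512) after 6 h. The control was lowest and its interval lay apart from those of the drug-treated libraries. The log2 ratio to the control came to 0.96 (0.94 to 0.98) after 3 h and 1.07 (1.05 to 1.09) after 6 h, or 0.78 at both times under TMM. Nearly all of the difference was present at 3 h, since the log2 ratio of 6 h to 3 h was 0.11 by CPM and -0.05 by mean UMIs per cell. In the order of log2 ratios Atf4 lay above 95.2% (3 h) and 92.8% (6 h) of genes. The 5 genes whose pair of log2 ratios to the control lay closest to that of Atf4, by Euclidean distance over the 2 comparisons, were Ddx31, Sdf2, Rrnad1, Chd9 and Rnf166, at distances of 0.028 to 0.048. None of them was among the members or the pathway lists. Both comparisons share the control library.

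Atf5, a relative of Atf4 that is also controlled through upstream open reading frames, did not follow it. Atf5 (ENSMUSG00000038539, chromosome 7, 44812256 to 44816658) stood at 36.3 CPM with ethanol (35.2 to 37.4), against 26.6 (25.6 to 27.6) after 3 h of drug and 25.1 (24.2 to 25.9) after 6 h. The log2 ratios of -0.45 after 3 h and -0.53 after 6 h became -0.62 and -0.82 under TMM and so passed 1.5-fold there. Ddit3, which encodes the pro-apoptotic factor CHOP, was the only target among the 9 that was at least 1.5-fold higher. Ddit3 (ENSMUSG00000025408, chromosome 10, 127290774 to 127296288) stood at 13.4 CPM with ethanol (12.8 to 14.1), against 28.1 (27.1 to 29.1) after 3 h of drug and 29.9 (29.0 to 30.8) after 6 h. The control again lay below both drug-treated libraries, with log2 ratios of 1.06 (0.97 to 1.16) after 3 h and 1.15 (1.07 to 1.24) after 6 h. The number of Atf4 UMIs per Ddit3 UMI was therefore close in the 3 libraries, at 18.0, 16.7 and 17.0. A second identifier carrying the symbol Ddit3 overlaps this gene and had 0 UMIs in every library, and Mars overlaps its end by 68 bases on the other strand.

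Feedback inhibitors of the response behaved differently from each other. Ppp1r15a encodes GADD34, which recruits a phosphatase to eIF2 and so ends the response. Ppp1r15a (ENSMUSG00000040435, chromosome 7, 45522916 to 45526268) stood at 30.8 CPM with ethanol (29.8 to 31.8), against 30.9 (29.9 to 32) after 3 h of drug and 26.7 (25.8 to 27.5) after 6 h. Its level at 3 h differed from the control by less than counting error by CPM, and its log2 ratio at 6 h was -0.21. At 3 h the log2 ratio was -0.17 under TMM and 0.28 by mean UMIs per cell, so no direction is given. Trib3 encodes a pseudokinase that binds ATF4 and CHOP and limits their activity. Trib3 (ENSMUSG00000032715, chromosome 2, 152337422 to 152344032) stood at 46.9 CPM with ethanol (45.6 to 48.2), against 19.3 (18.5 to 20.2) after 3 h of drug and 10.9 (10.4 to 11.5) after 6 h. Each interval lay apart from the next, and the log2 ratio went from -1.28 (-1.35 to -1.20) after 3 h to -2.10 (-2.18 to -2.02) after 6 h. Between 3 h and 6 h the log2 ratio was -0.82.

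Chac1 had the lowest ratio of the members. It encodes an enzyme that degrades glutathione, and its transcript is a sensitive marker of ATF4 activity. Chac1 (ENSMUSG00000027313, chromosome 2, 119351229 to 119354381) stood at 22.6 CPM with ethanol (21.8 to 23.5), against 6.79 (6.30 to 7.30) after 3 h of drug and 2.58 (2.32 to 2.86) after 6 h, from 2523, 725 and 362 UMIs. The log2 ratio came to -1.74 (-1.86 to -1.62) after 3 h and -3.13 (-3.30 to -2.97) after 6 h. Only 0.039% of genes lay lower than Chac1 after 3 h, and 0.066% after 6 h. Atf4 UMIs per Chac1 UMI went from 10.7 in the control to 69.3 at 3 h and 197 at 6 h. Chac1 passed the mean of 10 CPM only through its control level. In free RNA, measured in barcodes with 10 to 100 UMIs, Chac1 stood at 30.3 CPM with ethanol (24.9 to 36.5), against 2.42 (1.05 to 4.77) after 3 h of drug and 2.30 (1.05 to 4.36) after 6 h. The level in cells at 6 h lay inside that last interval, and the part of free RNA in it was not tested.

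Among the effectors that restrain mTORC1, Sesn2 and Ddit4 differed. Sesn2 encodes a leucine sensor of that pathway. Sesn2 (ENSMUSG00000028893, chromosome 4, 132492032 to 132510501) stood at 49.6 CPM with ethanol (48.3 to 50.9), against 29.4 (28.3 to 30.4) after 3 h of drug and 28.3 (27.4 to 29.2) after 6 h. The drug-treated libraries overlapped each other and lay below the control, with log2 ratios of -0.76 after 3 h and -0.81 after 6 h. By mean UMIs per cell the 3 h log2 ratio was -0.49, which is short of 1.5-fold. Ddit4 encodes REDD1, which acts on mTORC1 through the TSC complex. Ddit4 (ENSMUSG00000020108, chromosome 10, 59949669 to 59951834) stood at 12.4 CPM with ethanol (11.7 to 13.1), against 11.9 (11.3 to 12.6) after 3 h of drug and 12.7 (12.1 to 13.3) after 6 h. The 3 intervals overlapped, and its log2 ratios to the control were -0.05 (-0.17 to 0.06) and 0.04 (-0.07 to 0.14).

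The enzymes of amino acid synthesis had the most summed UMIs among the 9 other members, and they differed from each other. Asns, asparagine synthetase, is a classic ATF4 target. Asns (ENSMUSG00000029752, chromosome 6, 7675169 to 7693254) stood at 293 CPM with ethanol (290 to 296), against 298 (295 to 301) after 3 h of drug and 301 (298 to 304) after 6 h. Its log2 ratios of 0.02 and 0.04 became -0.15 and -0.25 under TMM, and neither scaling placed it past 1.5-fold. Psat1, a serine synthesis enzyme, was lower at both times. Psat1 (ENSMUSG00000024640, chromosome 19, 15904678 to 15947337) stood at 244 CPM with ethanol (241 to 247), against 194 (192 to 197) after 3 h of drug and 167 (165 to 170) after 6 h, with log2 ratios of -0.33 after 3 h and -0.54 after 6 h. Under TMM the 6 h log2 ratio was -0.83 and passed 1.5-fold.

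**Figure D2:**
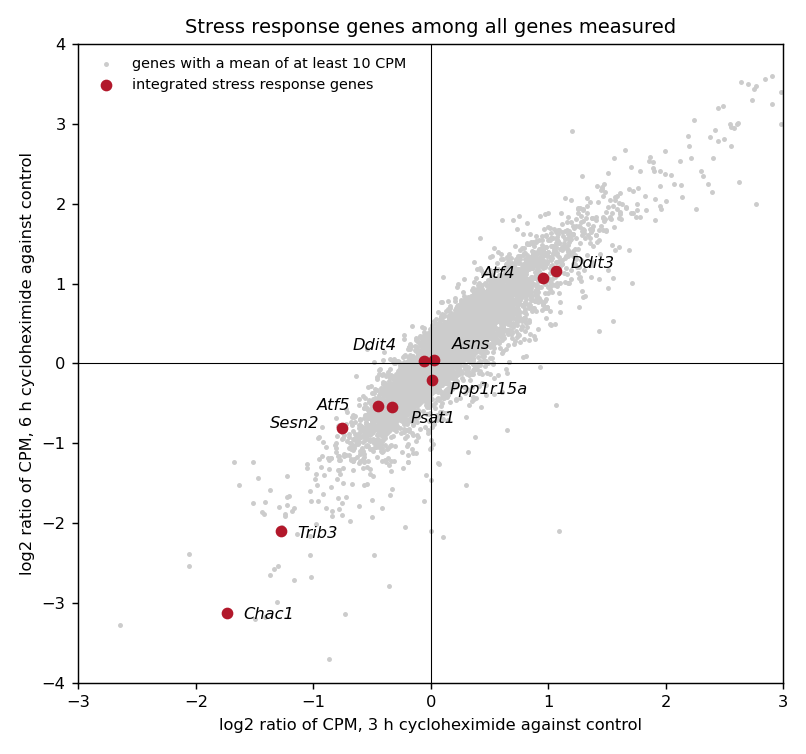
Log2 ratio of CPM to the control at 3 h (horizontal) against that at 6 h (vertical) for genes averaging 10 CPM or more (grey) and the 10 stress response genes (red); 11 grey genes lie outside the axes. Atf4 and Ddit3 lie at the upper right, Trib3 and Chac1 at the lower left, and Asns, Ddit4 and Ppp1r15a near the origin; both axes share the control library.

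In all, 2 of 10 members were at least 1.5-fold higher than the control at 3 h, beside 13.9% of all genes, and 2 of 10 at 6 h, beside 22.1%. These shares are near the background. The members were Atf4 and Ddit3 at both times. At least 1.5-fold lower were Trib3, Chac1 and Sesn2, which is 3 of 10 members at 3 h, beside 2.13% of all genes, and 3 of 10 at 6 h, beside 7.79%. Under TMM 4 members were at least 1.5-fold lower at 3 h, beside 5.23% of genes, and 5 at 6 h, beside 16.9%, while Atf4 and Ddit3 stayed at least 1.5-fold higher, beside 8.6% and 11.6%. At 2-fold by CPM, 1 member was higher at 3 h, Ddit3, beside 4.32% of genes, and 2 were lower, Trib3 and Chac1, beside 0.513%. At 6 h 2 were higher at 2-fold, beside 8.65%, and 2 lower, beside 2.41%. The median log2 ratio of the 9 members other than Atf4 was -0.33 at 3 h and -0.53 at 6 h, against 0.11 and 0.17 for all genes. Under TMM it was -0.50 and -0.82, against -0.063 and -0.12 for all genes, and by mean UMIs per cell it was -0.058 and -0.43, against 0.38 and 0.27. Between 3 h and 6 h only Trib3 and Chac1 were past 1.5-fold, both lower, beside 2.52% of all genes, and 0 members were higher, beside 1.74%.

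Atf4 was then set against its targets in a ratio that scaling between libraries leaves unchanged. The other 9 members summed to 749, 645 and 605 CPM in the order control, 3 h and 6 h. Most of this sum was Asns and Psat1, at 293 and 244 CPM in the control and 301 and 167 CPM at 6 h. Atf4 UMIs per UMI of these 9 genes numbered 0.323 with ethanol, 0.729 after 3 h of drug and 0.841 after 6 h, which is a log2 of -1.63, -0.46 and -0.25. Per Asns UMI there were 0.827, 1.58 and 1.69 Atf4 UMIs, and per Trib3 UMI 5.16, 24.3 and 46.5. The control had the lowest ratio of Atf4 to each of the 9 genes except Ddit3, for which it had the highest.

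Shares of cells with a UMI were compared after thinning every cell to 15000 UMIs, which left no cell out. An Atf4 UMI was found in 92.4% of ethanol-treated cells (91.2 to 93.4), against 98.0% (97.3 to 98.6) and 98.1% (97.5 to 98.6) after 3 h and 6 h of drug, and the median cell had 3, 7 and 7 Atf4 UMIs. Unthinned, these shares were 98.2%, 99.2% and 99.1%. For Ddit3 the shares were 16.8% (15.2 to 18.4), 32.6% (30.4 to 34.9) and 36.2% (34.4 to 38.1), and unthinned 42.1%, 70.8% and 70.9%. Both genes had a UMI in a larger share of drug-treated cells.

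For Chac1 the shares were 22.8% (21.1 to 24.6), 8.11% (6.87 to 9.49) and 3.68% (2.98 to 4.49) in the same order, and unthinned 50.1%, 28.0% and 12.5%. For Trib3 they were 46.0% (43.9 to 48.2), 24.5% (22.5 to 26.6) and 15.5% (14.2 to 17.0), and unthinned 77.7%, 61.3% and 40.1%. Sesn2 went from 49.4% to 32.4% and 31.7%, and unthinned from 82.6% to 67.3% in both drug-treated libraries. Asns had a UMI in 96.8 to 97.5% of thinned cells in each library. No second cell type lacking these genes was identified here, so the level in free RNA is the only background available. Free RNA held 335, 519 and 536 CPM of Atf4 in the order control, 3 h and 6 h. In the same order it held 44.2, 12.1 and 9.18 CPM of Trib3. For Ddit3 it held 23.9 (19.1 to 29.5), 26.9 (21.6 to 33.1) and 33.2 CPM (27.7 to 39.4), and these intervals overlapped. In the control that level lay above the 13.4 CPM of Ddit3 in cells. The same held there for Atf4 (335 against 242 CPM), Atf5 (56.1 against 36.3), Chac1 (30.3 against 22.6) and Ddit4 (19.5 against 12.4). For Sesn2 it was 56.1 against 49.6 CPM, with overlapping intervals. Ppp1r15a, Trib3, Asns and Psat1 were lower in control free RNA than in control cells, with overlapping intervals for Ppp1r15a and Trib3. The part of free RNA in the shares of these genes was not tested. A share given here counts barcodes holding a UMI, which free RNA can reach as well.

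**Figure D3:**
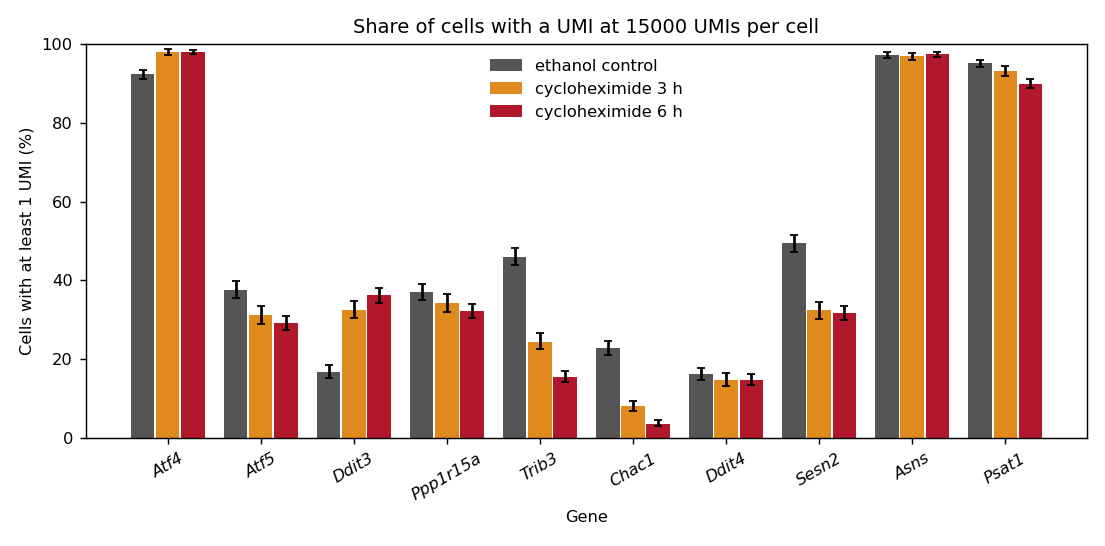
Percentage of cells with at least 1 UMI of each gene after thinning to 15000 UMIs per cell, for the 3 libraries, with 95% Clopper-Pearson intervals as bars. Shares of Trib3 and Chac1 step down after cycloheximide, that of Ddit3 is higher, and those of Atf4, Asns and Psat1 are near the ceiling.

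Within the control library Atf4 and several of its targets varied together from cell to cell. Pearson's r was taken over cells thinned to 15000 UMIs, as a description with no test, since the cells share 1 library and the counts are sparse. Among 6375 other genes with at least 0.2 UMIs per control cell, the 5 with the highest r with Atf4 were Trib3 (0.25), Eif4ebp1 (0.22), Slc3a2 (0.20), Chac1 (0.19) and Pck2 (0.19), against a median of 0.003 and a 95th percentile of 0.054. All 5 are known ATF4 targets. Eif4ebp1 encodes a repressor of cap-dependent translation, Slc3a2 the heavy chain of amino acid exchangers, and Pck2 a mitochondrial enzyme of gluconeogenesis. Psat1 (0.14), Atf5 (0.13), Asns (0.099), Ddit3 (0.094) and Sesn2 (0.058) also lay above that percentile, whereas Ddit4 (0.042) and Ppp1r15a (0.003) did not. Ddit3 and Ddit4 had fewer than 0.2 UMIs per control cell and so were not among the 6375 genes. For the summed UMIs of the 9 other members, the gene with the highest r was Atf4 (0.27), followed by Mthfd2, Eif4ebp1, Cth and Nars (0.24 to 0.21).

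After cycloheximide this covariation was weaker in these libraries. The r of Atf4 with the summed other members was 0.27, 0.10 and 0.046 in the order control, 3 h and 6 h, and 0.34, 0.18 and 0.092 when cells were thinned to 25000 UMIs. For Trib3 it went from 0.25 to 0.059 and 0.007, and for Chac1 from 0.19 to 0.038 and 0.009. Trib3 had 0.686, 0.288 and 0.171 UMIs per thinned cell and Chac1 0.302, 0.089 and 0.039, and the part of these lower counts in r was not tested. Slc3a2 had 3.89, 4.08 and 4.99 UMIs per thinned cell, and its r with Atf4 was 0.20, 0.13 and 0.009. For Eif4ebp1 the r with Atf4 was 0.22, 0.18 and 0.097, and for Pck2 0.19, 0.10 and 0.085. Trib3, Chac1, Slc3a2, Eif4ebp1 and Pck2 were picked for the highest r in the control. That choice alone favours a lower r in the other libraries. Asns had 4.50, 4.45 and 4.60 UMIs per thinned cell, and its r with Atf4 was 0.099, 0.069 and 0.041. Covariance divided by the product of the means was 0.071, 0.020 and 0.009 for Atf4 with the summed members. For Atf4 with Trib3 it was 0.23, 0.057 and 0.009. In the control Atf4 also had an r of -0.15 with the mitochondrial share of the cell and 0.028 with the logarithm of its UMIs, and the part of the mitochondrial share in the covariation was not tested.

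**Figure D4:**
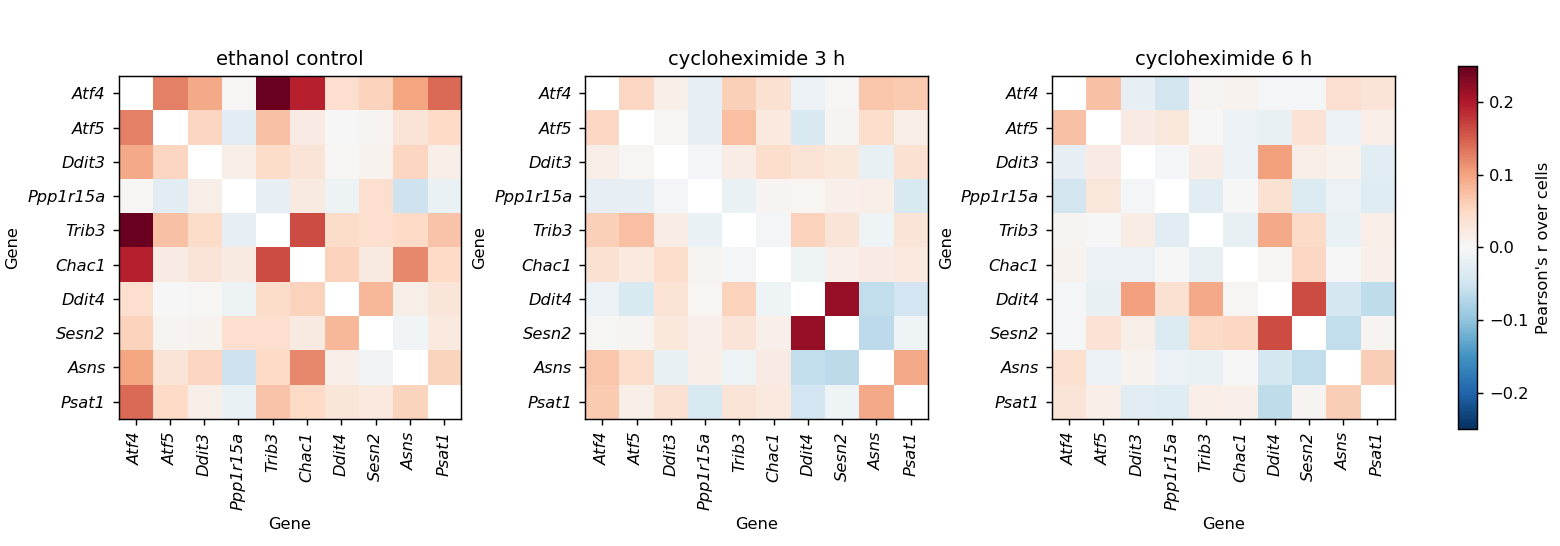
Pearson's r between each pair of the 10 genes over cells thinned to 15000 UMIs, in the control (left), at 3 h (middle) and at 6 h (right); colour runs from -0.25 to 0.25 and the diagonal is blank. In the control the highest pair is Atf4 with Trib3, and after cycloheximide the highest pair is Ddit4 with Sesn2.

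The members also differed in their spread over cells. The variance of Atf4 over its mean was 1.75, 1.81 and 1.91 in the same order of libraries, where 1 is counting noise alone, and lay above that of at least 96.6% of genes in each library. This measure grows with the mean, which was 3.59, 6.97 and 7.59 UMIs per thinned cell, and the squared coefficient of variation in excess of counting noise was 0.208, 0.116 and 0.120. Chac1 had 1.35 in the control, above 92.1% of genes. Ddit4, whose summed levels overlapped, went from 1.14 in the control to 1.51 at 3 h and 1.52 at 6 h, and Sesn2 from 1.09 to 1.28 and 1.23. The r of Ddit4 with Sesn2 was 0.083 with ethanol, 0.22 after 3 h of drug and 0.16 after 6 h. Of the 45 pairs of members, 6 had an r above 0.1 with ethanol, against 1 and 2 after 3 h and 6 h of drug.

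Other genes of the pathway were read as 7 lists. Their counts past 1.5-fold at 6 h stand beside 22.1% of all genes higher and 7.79% lower by CPM, and beside 11.6% higher and 16.9% lower under TMM. Among eIF2 kinases, eIF2 and eIF2B subunits and their phosphatase genes, 19 of 20 passed 10 CPM, and 0 were past 1.5-fold at 3 h. At 6 h, 3 were higher and 2 lower, or 1 and 3 under TMM, which is near the background. Eif2b2, a regulatory subunit of the exchange factor that phosphorylated eIF2 inhibits, reached a 6 h log2 ratio of 0.91, and Eif2ak2, the kinase PKR, of 0.82. Gcn1, a coactivator of the kinase GCN2, had -0.66, and Ppp1r15b, the constitutive partner of the eIF2 phosphatase, had -0.60. Among factors related to ATF4 by their zipper or its partners, 13 of 20 passed, with 4 higher and 2 lower at 6 h and a median log2 ratio of 0.28. Under TMM the balance was the other way, with 2 higher, 4 lower and a median of -0.007. Jun and Cebpd were highest (1.01 and 0.96) and Fos and Nfe2l1 lowest (-2.71 and -0.60). Cebpd had 6.35 CPM in the control and passed the mean of 10 CPM only through the drug-treated libraries.

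Lists of ATF4 targets in amino acid supply had medians below the 0.17 of all genes at 6 h. Of 18 amino acid and one-carbon enzymes, 1 was at least 1.5-fold higher and 5 lower at 6 h, beside 22.1% and 7.79% of all genes, with a median log2 ratio of -0.28. Cth, which makes cysteine from cystathionine, had 0.59, whereas Shmt1, which moves one-carbon units from serine, had -1.64 and Gpt2, an alanine transaminase, -1.03. Of 9 amino acid transporters, 1 was higher and 4 lower, with a median of -0.49. Slc7a5, a carrier of large neutral amino acids, had -1.65, and its partner Slc3a2 had 0.36. The taurine carrier Slc6a6 had -1.07 and Slc7a6 had 0.62. Of 21 genes for aminoacyl-tRNA synthetases and the tRNA exporter Xpot, 1 was higher and 3 lower, with a median of -0.26. Farsa had 0.78 and Yars 0.12, and Xpot and Nars had -1.01 and -0.69. Under TMM 9 enzymes, 6 transporters and 8 genes of the synthetase list were at least 1.5-fold lower at 6 h, beside 16.9% of all genes, and 0 were higher, beside 11.6%. The letters TGATGNAA were counted in listed genes with a window, expressed or not. They were found in 5 of 13 of the synthetase list, 3 of 14 enzymes and 2 of 8 transporters. The same letters were found in 3 of 17 zipper factors and partners, 3 of 14 stress effectors and 1 of 16 kinase and eIF2 genes. Of genes of the other arms of endoplasmic reticulum stress, 0 of 18 had them. The share was 3.97% of all windows and 2.37% of expressed genes with a window. The transporters with a match, Slc7a11 and Slc1a4, did not count as expressed. Nor did Atf3 and Jdp2 of the zipper list or Vldlr and Fgf21 of the effectors. For these lists the share of expressed genes is therefore not a like-for-like background. The 5 of the synthetase list with a match were Aars, Gars, Iars, Tars and Yars, whose 6 h log2 ratios ran from -0.69 to 0.12.

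Stress effectors went both ways. Of 13 that passed 10 CPM, 5 were at least 1.5-fold higher and 3 lower at 6 h, beside 22.1% and 7.79% of all genes, with a median log2 ratio of 0.11. Under TMM 4 were higher and 4 lower, with a median of -0.18. Gadd45a, a growth arrest gene, had 1.78 at 3 h and 1.83 at 6 h, and the autophagy gene Atg12 had 0.82 and 1.21. Gdf15, a stress cytokine, had -1.51 and -1.24, from 18.7, 6.56 and 7.95 CPM in the order control, 3 h and 6 h. It is counted among those lower, and passed the mean of 10 CPM only through its control level. Sesn3, counted among those higher, had 9.33 CPM in the control and passed that mean only through the drug-treated libraries. Herpud1, a component of endoplasmic reticulum associated degradation, had -1.68 and -1.23. Genes of the other arms of endoplasmic reticulum stress had the lowest median of the 7 lists, -0.36 at 3 h and -0.55 at 6 h. Of 18 that passed, 1 was at least 1.5-fold higher and 6 lower at 6 h, beside the 22.1% and 7.79% of all genes given above. Under TMM 13 of the 18 were lower, beside 16.9% of all genes. The chaperone gene Hspa5 had 391, 247 and 203 CPM in the order control, 3 h and 6 h. Xbp1, the factor of the IRE1 arm, had 25.4, 12.5 and 5.68 CPM in the same order and a 6 h log2 ratio of -2.16. Edem1 had 13.4, 10.4 and 8.56 CPM. Xbp1 and Edem1 are counted among those lower, and averaged 10 CPM only with their control level included. The selenoprotein gene Selenos had a 6 h log2 ratio of 1.62, the one gene of the list past 1.5-fold higher. Dnajc3 had 0.33.

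**Figure D5:**
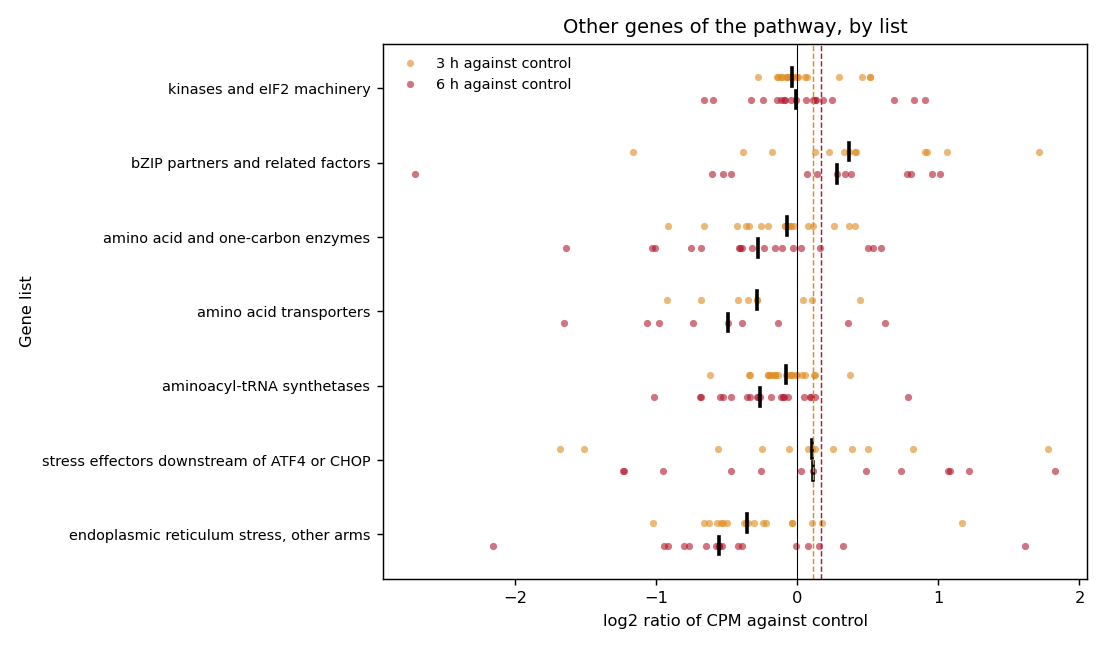
Log2 ratio of CPM to the control at 3 h and 6 h for each gene of 7 pathway lists that averaged 10 CPM or more; black bars are list medians and dashed lines the medians of all genes (0.11 and 0.17). Lists of amino acid supply and of endoplasmic reticulum stress have medians below the dashed lines, with single genes on both sides.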

How the data were processed

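The authors deposited raw UMI counts per gene and barcode, made with Cell Ranger 4.0.0 on mm10 per the submitters' processing notes. The matrices list 6794880 barcodes each, so cells had not been called. The annotation and the rule for reads in overlapping genes are not given in the sources used here; Sesn2, Atf5, Ppp1r15a and Ddit3 overlap other annotated genes and are uncertain in that respect. Gene positions are from GENCODE M21 (GRCm38), matched by identifier. Kept barcodes had at least 15000 UMIs and 1 to 20% mitochondrial UMIs; this left out 62 control barcodes, 1 at 3 h and 8 at 6 h, all below 1%. No doublets were removed. Log2 ratios used a prior of 0.5 counts. Thinning was without replacement. Scaling alternatives were TMM of edgeR 4.0.16 and size factors of DESeq2 1.42.0. Python 3.11.15, numpy 2.4.6 and scipy 1.17.1 were used, and the ratio and correlation code was tested on simulated data. The members and lists were chosen with earlier results of these data known. All members were named. From each pathway list the 2 highest and 2 lowest genes at 6 h were named, except 1 that is not reported here, and a few others were singled out after their values were seen. The covariance ratio and the correlations with depth and mitochondrial share were chosen after seeing the data.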

Additional observations from a re-analysis of the deposited data

How the results depend on the processing

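The log2 ratio of Atf4 at 3 h and 6 h was 0.78 and 0.78 under TMM, 0.84 and 0.91 with DESeq2 size factors, 1.23 and 1.18 by mean UMIs per cell, 0.98 and 1.09 without mitochondrial limits, and 1.01 and 1.13 after subtraction of 10% free RNA. The median of the other 9 members at 3 h and 6 h was -0.50 and -0.82 under TMM, -0.44 and -0.70 with DESeq2 size factors, and -0.058 and -0.43 by mean UMIs per cell. At least 1.5-fold lower at 6 h were 5 members under TMM and 5 with DESeq2 size factors. At 2-fold, 1 member in place of 2 was higher at 3 h. Leaving out Ddit4 gave log2 ratios of Atf4 to the summed members of -1.61, -0.43 and -0.22 in the order control, 3 h and 6 h. Thinned to 25000 UMIs, the r of Atf4 with the summed members was 0.34, 0.18 and 0.092, and it was 0.15 at 3 h and 0.072 at 6 h without cells above 2 times the median UMIs. Atf4, Ddit3, Trib3 and Chac1 kept their direction and stayed past 1.5-fold in both comparisons with the control under all 10 alternatives of scaling, cells, prior and free RNA. The sign changed under at least 1 alternative for Asns and Ddit4 at both times and for Ppp1r15a at 3 h, all within 1.5-fold. Scaling changed each of these signs, and so did dropping the deepest cells for Ppp1r15a at 3 h and Ddit4 at 6 h, and free RNA subtraction for Ddit4 at 3 h. No paired analysis was possible because each group had 1 library. Differences between cultures or preparations cannot be told apart from the treatment.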

Other observations

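The covariation of Ddit4 and Sesn2 was looked at after their values were seen. In each library the 5 genes with the highest r with Ddit4 included Mdm2, the ubiquitin ligase that p53 induces to limit itself. Its r with Ddit4 was 0.15, 0.38 and 0.28 in the order control, 3 h and 6 h. At 3 h the 5 genes were Phlda3 (0.40), Mdm2 (0.38), Perp (0.35), Trp53inp1 (0.34) and Ddit4l (0.32), among 6837 genes with at least 0.2 UMIs per cell. Phlda3, Mdm2, Perp and Trp53inp1 are known p53 targets, as are Ddit4 and Sesn2. For Sesn2 at 3 h they were Mdm2 (0.26), Phlda3 (0.26), Btg2 (0.25), Ddit4l (0.24) and Trp53inp1 (0.23). At 6 h Btg2 and Mdm2 led for Sesn2 (0.19 and 0.18), and Btg2 led for Ddit4 (0.33). None of these genes was among the 5 highest for Atf4 in any library. Some were among the 5 highest for other members, at lower r than with Ddit4 in the same library. These were Phlda3 for Trib3 (0.098) and Perp for Ddit3 (0.10) at 3 h, and Btg2 for Ppp1r15a (0.10) at 6 h. Ccng1 (0.11) and Cdkn1a (0.11) were among the 5 highest for Ddit4 in the control. At 6 h both were among the 5 highest for Trib3 (0.13 and 0.13), and Cdkn1a was for Ppp1r15a (0.081). Ddit4 itself had the same level in the 3 libraries within counting error by CPM, so its summed level and its spread over cells gave different pictures.

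At 6 h the 5 genes with the highest r with Atf4 were Tuba1b (0.14), Nupr1 (0.13), H2afx (0.13), Cks2 (0.12) and Bub3 (0.11). At 3 h they were Eif4ebp1 (0.18), Gars (0.15), Shmt2 (0.15), Gm47283 (0.15) and Mthfd2 (0.15). Eif4ebp1, Gars, Shmt2 and Mthfd2 are known ATF4 targets. Nupr1 is a stress-induced target of ATF4, while Cks2 and Bub3 act in mitosis.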
